A study of Mus musculus with 4 samples.

Results

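The SLC25 carriers are the family of small membrane proteins that move metabolites, nucleotides, cofactors and ions across the inner mitochondrial membrane. The members described here are the protein_coding rows of the deposited expression table whose symbol begins with Slc25a and a number. They are 47 genes of 50600 in the table. A further row, Slc25a5-ps, carries an Slc25a symbol as a processed pseudogene and was left out, with 0 CPM in every library. CPM are reads scaled to a library of about 1000000.

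RNA was sequenced from Py8119 cells, an established line of mouse breast cancer cells. The labels give their strain as C57BL/6 and their phenotype as mesenchymal-like, and they were grown untreated in IMDM with fetal bovine serum. The control group (titled hygro, genotype control) has 2 libraries and the group with Mtss1 overexpression has 2, called control 1 and 2 and Mtss1 1 and 2 below. The vector, its promoter and whether either population came from 1 clone are not stated in the labels. They also do not say whether replicate libraries were made from separate cultures. The p-values therefore describe the spread among 4 libraries, and that spread may be only technical.

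The carriers share a fold built from a tandem repeat of paired membrane helices and take turns opening to either side of the inner membrane. They supply the respiratory chain and ATP synthase with ADP and phosphate, pass reducing equivalents and carbon between cytosol and matrix, and bring in cofactors and iron that are used in the matrix. In the deposited gene annotation, 46 of the 47 carry the term mitochondrial inner membrane. The exception, Slc25a46, is known as an outer membrane protein. Slc25a17, known as a peroxisomal carrier, is the 1 member with a peroxisome term, and 5 members carry the term calcium ion binding (Slc25a12, Slc25a13, Slc25a23, Slc25a24 and Slc25a25).

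Libraries held between 15594210 and 22081639 reads, and the Mtss1 pair was the shallower; the part of depth in the results was not tested. As a check of the labels, Mtss1 itself stood at 54.5 and 50.5 CPM in the control libraries and at 118 and 119 CPM in the Mtss1 libraries (log2 fold change 1.16 ± 0.05, SE). All 6 mesenchymal markers listed were expressed, and their summed level was 14436 and 14556 CPM in control 1 and 2, against 12540 and 12686 CPM in Mtss1 1 and 2. By limma across all genes tested, 2 of the 6 fell, Fn1 (log2 fold change -0.30, adjusted p = 5.8e-07) and Cdh2 (-0.22, adjusted p = 1.4e-05), and 2 rose, Twist1 (0.51, adjusted p = 3.1e-07) and Zeb1 (0.17, adjusted p = 0.0084). Of 6 epithelial markers, Krt8 and Krt18 passed the expression filter and both were lower with Mtss1, while Epcam, Cdh1, Krt5 and Krt14 read at most 0.119 CPM. Krt8 went from 585 to 367 CPM (-0.67, adjusted p = 4.1e-13) and Krt18 from 286 to 234 CPM (-0.28, adjusted p = 2.9e-07), and the sum of the 6 was 849 and 893 CPM in control, against 601 and 603 CPM with Mtss1. The part of these marker differences in the carriers' changes was not tested. Summed levels of 5 immune, 3 endothelial and 3 adipocyte markers reached at most 0.126, 1.19 and 0.184 CPM.

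Of the 47 carriers, 38 passed the expression filter of at least 1 CPM in at least 2 libraries. With Mtss1 overexpression 10 of them were higher, 18 were lower and 10 did not pass the test at a limma adjusted p under 0.05. Called carriers were 73.7% of those tested, beside 66.1% of all 12510 genes tested, and by direction 26.3% were higher and 47.4% lower, beside 31.9% and 34.2% of all genes. The median log2 fold change of the tested carriers was -0.06 and that of all genes tested -0.01. In RNA from whole cultures, fewer cells expressing a gene and less of its RNA per cell cannot be told apart. Single carriers ranged from -1.30 (Slc25a45) to 1.42 (Slc25a42). Libraries of the groups did not overlap for 32 of the 38, with 13 higher and 19 lower, while 81.6% of all genes did not overlap (39.7% higher, 41.9% lower). A change of at least 0.5 on the log2 scale past the test was reached upward by 6 carriers and downward by 7, where 13.1% and 14.0% of all genes tested did so. Log2 fold changes here are differences of log2(CPM + 1), which understate the change of low genes.

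**Figure D1:**
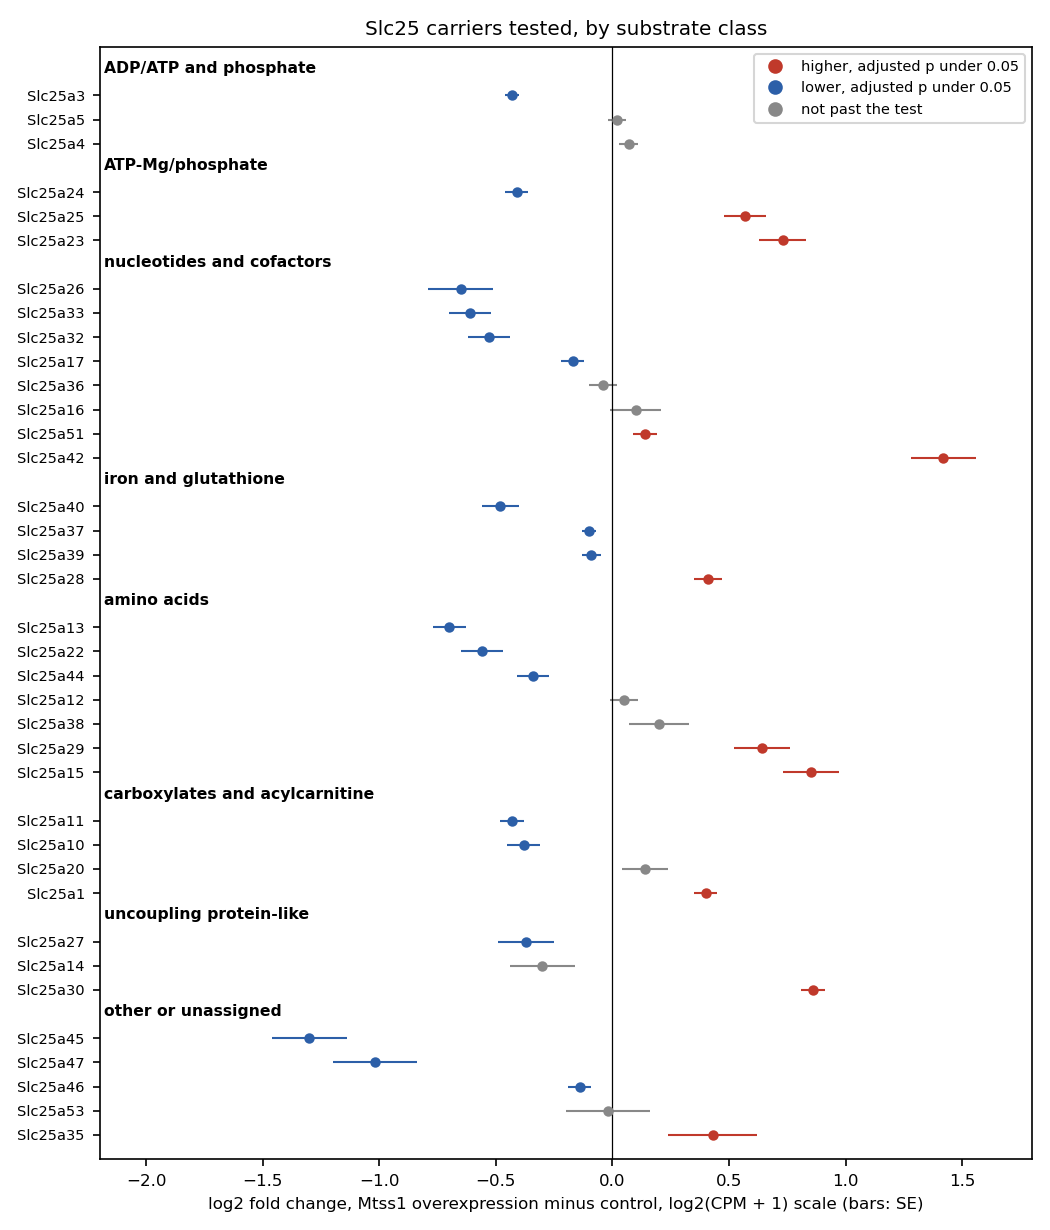
Log2 fold change (x axis, Mtss1 overexpression minus control, log2(CPM + 1) scale) of the tested carriers reported here, grouped by substrate class; points are limma estimates, bars their SE, red and blue mark adjusted p under 0.05. Most classes hold both higher and lower members, from -1.30 for Slc25a45 to 1.42 for Slc25a42.

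The family as a whole took a small and slightly lower share of the RNA. Its summed level was 3220 and 3203 CPM in control 1 and 2, against 3014 and 3033 CPM in Mtss1 1 and 2. Slc25a37, Slc25a3, Slc25a4 and Slc25a39 together held 59.4% and 58.6% of that sum in the control libraries and 57.6% and 56.9% in the Mtss1 libraries. Levels of different genes were compared as CPM per kilobase of annotated exon, with the exons of all transcripts of a gene joined. That length can exceed the length of the transcripts expressed here, so orders and ratios per kilobase depend on the annotation. On that scale the order in control was led by Slc25a4 (155), Slc25a37 (135), Slc25a5 (109), Slc25a39 (103) and Slc25a3 (78.5 CPM per kilobase), and the lowest tested carriers were Slc25a35 (0.303) and Slc25a53 (0.268). With Mtss1 overexpression the first 5 kept this order, at 163, 126, 111, 96.9 and 58.1 CPM per kilobase.

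**Figure D2:**
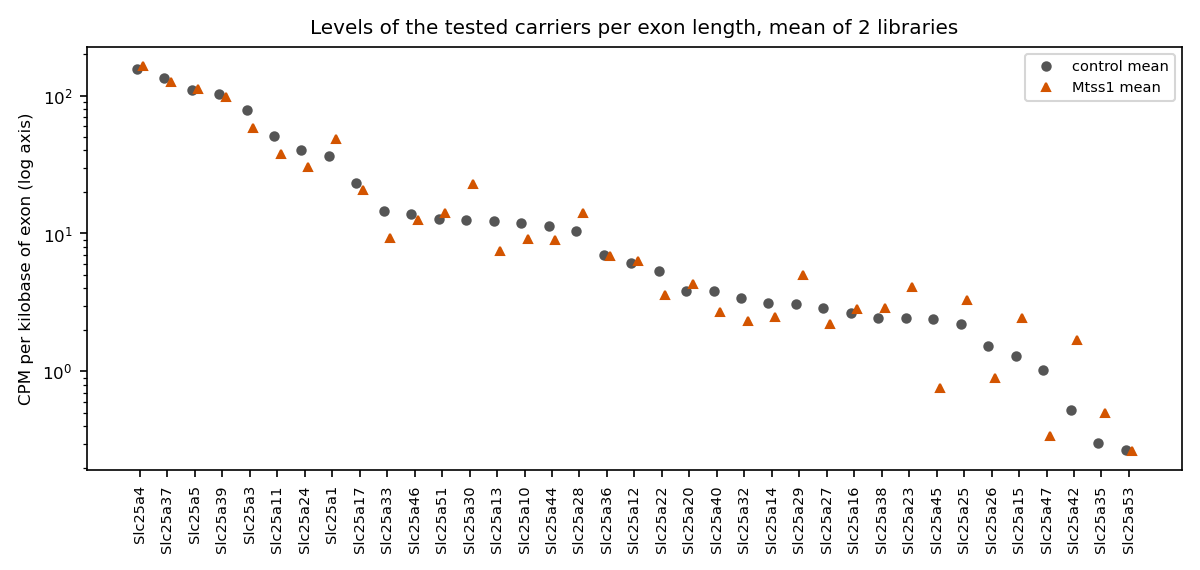
Level of the tested carriers reported here in CPM per kilobase of exon (log y axis), mean of 2 control libraries (circles) and of 2 Mtss1 libraries (triangles), ordered by the control level. Levels run from 155 for Slc25a4 to 0.268 for Slc25a53 in control.

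The carriers that feed ATP synthase were examined first. Slc25a3 brings phosphate into the matrix, and Slc25a4 and Slc25a5 exchange ADP for ATP; Slc25a31 is a further ADP/ATP carrier known from germ cells. Only the phosphate carrier passed the test among the 3 tested, where 66.1% of all genes tested passed. Slc25a3 read 435 and 436 CPM in control 1 and 2, against 323 and 323 CPM in Mtss1 1 and 2. Its mean fell from 436 ± 0.374 to 323 ± 0.0330 CPM (SD, n = 2), which is a log2 fold change of -0.43 ± 0.03 (SE, limma adjusted p = 1.5e-10). Slc25a4 read 358 and 372 CPM in control, against 389 and 378 CPM with Mtss1 (log2 fold change 0.07 ± 0.04, adjusted p = 0.076). Slc25a4 passed with library-size scaling (adjusted p = 0.0082), with median-of-ratios scaling (0.037) and without control 2 (0.037), in a range of 0.0082 to 0.38 over 12 alternative settings. Slc25a5 stood at 174 and 187 CPM in control and at 180 and 184 CPM with Mtss1, with overlapping groups and a log2 fold change of 0.02 ± 0.04 (adjusted p = 0.73). Slc25a31 reached 1 read in 1 library.

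Upstream of the start of Slc25a3, the 158 bases free of annotated exons are shown because this was the most abundant carrier to fall at an adjusted p under 0.01; capitals mark a match to the ETS-type motif CCGGAAG, to which GABPA, a regulator of nuclear genes for mitochondrial proteins, is known to bind. Sequences here and below are from RefSeq windows on GRCm38.p6, which is the mm10 assembly, and read 5′ to 3′ on the gene's strand.
Slc25a3 chr10:91124060-91124217 (- strand): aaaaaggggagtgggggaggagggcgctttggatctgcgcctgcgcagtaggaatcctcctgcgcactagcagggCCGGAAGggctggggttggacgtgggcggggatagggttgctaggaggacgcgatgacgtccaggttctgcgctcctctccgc

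The calcium-regulated carriers that exchange ATP-Mg for phosphate, and so set the size of the adenine nucleotide pool in the matrix, moved in opposite directions. Slc25a24, the most abundant of them, fell, while Slc25a23 and Slc25a25 rose. Slc25a24 read 140 and 134 CPM in control, against 97.6 and 109 CPM with Mtss1 (log2 fold change -0.41 ± 0.05, adjusted p = 1.5e-07). Slc25a23 read 14.0 and 11.6 CPM in control against 21.4 and 22.2 CPM (0.73 ± 0.10, adjusted p = 1.6e-06). Values for Slc25a25 were 17.4 and 17.0 CPM in control and 26.9 and 25 CPM with Mtss1 (0.57 ± 0.09, adjusted p = 5.9e-06). The groups did not overlap for any of these 3, as for 81.6% of all genes tested. In CPM, the level of Slc25a24 was 8 times that of Slc25a25 in control and 3.98 times with Mtss1; per kilobase the ratios were 18.3 and 9.11. Slc25a41, the remaining ATP-Mg/phosphate member, lacks the term calcium ion binding and had at most 2 reads in a library.

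Carriers of nucleotides and cofactors held the largest rise of the family. All 9 members were tested, and 2 rose, 4 fell and 3 did not pass. The called share was 66.7%, near the 66.1% of all genes tested. Slc25a42, which carries coenzyme A into the matrix, read 2.99 and 3.36 CPM in control 1 and 2 (61 and 73 reads) and 9.83 and 10.5 CPM in Mtss1 1 and 2 (156 and 177 reads). Its mean rose 3.21-fold, from 3.17 ± 0.263 to 10.2 ± 0.496 CPM (SD, n = 2), with a log2 fold change of 1.42 ± 0.14 (SE, adjusted p = 7.2e-09). As a low gene it depended on the pseudocount, with a log2 fold change of 0.89 at a pseudocount of 5 and 1.68 in limma-voom. The 226 bases upstream of its start are shown as those of the carrier with the largest rise; none of the motifs searched was found in them.
Slc25a42 chr8:70212306-70212531 (- strand): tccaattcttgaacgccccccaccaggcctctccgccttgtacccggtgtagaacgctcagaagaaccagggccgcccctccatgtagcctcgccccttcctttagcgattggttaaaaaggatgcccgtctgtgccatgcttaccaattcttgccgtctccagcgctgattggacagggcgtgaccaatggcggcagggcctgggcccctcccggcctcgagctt

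The falls in this class were in carriers of S-adenosylmethionine (Slc25a26), folate (Slc25a32) and pyrimidine nucleotides (Slc25a33), and in the peroxisomal Slc25a17. Slc25a26 read 7.45 and 7.18 CPM in control, against 4.66 and 3.93 CPM with Mtss1 (log2 fold change -0.65 ± 0.14, adjusted p = 3.5e-04; -0.41 at a pseudocount of 5). Its exons share 144 bases with those of Lrig1, which lies on the other strand and read up to 515 CPM, and the sources used here do not say whether the counting used strand. Slc25a32 went from 21 and 20.7 CPM to 13.7 and 14.6 CPM (-0.53 ± 0.09, adjusted p = 4.4e-05). Slc25a33 stood at 28.6 and 26.3 CPM in control and at 16.7 and 18.5 CPM with Mtss1 (-0.61 ± 0.09, adjusted p = 2.5e-06). Its relative Slc25a36, also a carrier of pyrimidine nucleotides, read 63.6 and 71.2 CPM in control, against 66.9 and 64.3 CPM with Mtss1, with overlapping groups (-0.04 ± 0.06, adjusted p = 0.59).

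Changes in the other cofactor carriers were small. Slc25a17, the peroxisomal carrier, fell from 66.4 ± 0.245 to 59.0 ± 2.74 CPM (SD, n = 2; log2 fold change -0.17 ± 0.05, adjusted p = 0.0090), but not without Mtss1 2 (adjusted p = 0.094, range 0.0051 to 0.094 over 12 alternatives). Slc25a51, the NAD+ carrier, rose from 69.9 ± 5.27 to 77.1 ± 1.00 CPM (0.14 ± 0.05, adjusted p = 0.027). That rise was lost without control 2 (log2 fold change 0.06, adjusted p = 0.41) and without Mtss1 1 (0.13, adjusted p = 0.098), and with no filter (adjusted p = 0.11), in a range of 0.0033 to 0.41. Slc25a16, thought to serve coenzyme A supply, had a log2 fold change of 0.10 ± 0.11 (adjusted p = 0.45).

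Iron and glutathione carriers included the most abundant gene of the family by read count. Slc25a37 (mitoferrin 1) and Slc25a28 (mitoferrin 2) bring iron into the matrix for haem and iron-sulphur clusters, and Slc25a39 and Slc25a40 carry glutathione. All 4 passed the test, Slc25a28 upward and the others downward, where 66.1% of all genes tested passed. Slc25a37 read 833 and 791 CPM in control, against 753 and 760 CPM with Mtss1 (log2 fold change -0.10 ± 0.03, adjusted p = 0.013). Slc25a28 read 38.3 and 40.2 CPM in control, against 54.5 and 50.8 CPM with Mtss1 (0.41 ± 0.06, adjusted p = 4.6e-06). The level of Slc25a37, a gene best known for its role in developing red cells, thus exceeded that of Slc25a28 in every library; per kilobase of exon they stood at 135 and 10.5 in control and at 126 and 14.0 with Mtss1.

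Slc25a40 fell from 31.7 and 32.3 CPM to 22.2 and 23.3 CPM (log2 fold change -0.48 ± 0.08, adjusted p = 1.2e-05), while the more abundant Slc25a39 read 288 and 279 CPM in control, against 270 and 264 CPM with Mtss1 (-0.09 ± 0.04, adjusted p = 0.041). The small falls of Slc25a37 and Slc25a39 depended on single libraries, the scaling and the filter. Slc25a37 did not pass without control 1 (adjusted p = 0.14) or Mtss1 1 (0.078), with library-size scaling (0.10) or with no filter (0.083), in a range of 7.2e-04 to 0.14 over 12 alternatives. Slc25a39 did not pass without control 1 (adjusted p = 0.24), Mtss1 1 (0.054) or Mtss1 2 (0.19), with median-of-ratios (0.074) or library-size scaling (0.25), or with no filter (0.093), in a range of 0.034 to 0.25.

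Among 7 tested amino acid carriers, 2 rose, 3 fell and 2 did not pass. This made 71.4% called (28.6% upward, 42.9% downward), where all genes tested gave 66.1% (31.9% upward, 34.2% downward). Slc25a12 (aralar) and Slc25a13 (citrin) exchange aspartate for glutamate and are part of the malate-aspartate shuttle. Slc25a13 read 44.8 and 49.2 CPM in control, against 26.9 and 30.3 CPM with Mtss1. It fell from 47.0 ± 3.06 to 28.6 ± 2.43 CPM (SD, n = 2; log2 fold change -0.70 ± 0.07, adjusted p = 2.1e-08). Slc25a12 read 45.8 and 43.4 CPM in control, against 44.9 and 47.3 CPM with Mtss1, with overlapping groups (0.05 ± 0.06, adjusted p = 0.51). In CPM the level of Slc25a12 was 0.949 times that of Slc25a13 in control and 1.62 times with Mtss1, and per kilobase 0.491 and 0.836 times.

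Slc25a22, a glutamate carrier, read 31.3 and 33 CPM in control, against 19.3 and 23.7 CPM with Mtss1 (log2 fold change -0.56 ± 0.09, adjusted p = 8.9e-06). Slc25a44, which carries branched-chain amino acids, fell from 40.5 ± 1.25 to 31.8 ± 2.52 CPM (-0.34 ± 0.07, adjusted p = 2.6e-04). The 2 carriers that rose both handle ornithine or related basic amino acids. Slc25a15, the ornithine carrier of the urea cycle, went from 6.66 and 7.82 CPM to 14.2 and 13.5 CPM (0.85 ± 0.12, adjusted p = 1.9e-06), and Slc25a29, a carrier of basic amino acids, from 7.89 and 8.19 CPM to 12.8 and 13.4 CPM (0.64 ± 0.12, adjusted p = 4.4e-05). Slc25a38, which supplies glycine for haem synthesis, read 6.47 and 7 CPM in control, against 8.51 and 7.32 CPM with Mtss1 (0.20 ± 0.13, adjusted p = 0.19). Slc25a2, a second ornithine carrier, lay under the filter with 1 and 3 reads in control and 11 and 10 reads with Mtss1. Slc25a18, the second glutamate carrier, had at most 4 reads in a library.

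Carriers of carboxylates moved in both directions. Slc25a1, which exports citrate to the cytosol for lipid synthesis, read 78.7 and 80.0 CPM in control, against 102 and 109 CPM with Mtss1 (log2 fold change 0.40 ± 0.05, adjusted p = 1.4e-07). Slc25a11, the malate-oxoglutarate carrier of the malate-aspartate shuttle, fell from 106 and 112 CPM to 80.2 and 80.4 CPM (-0.43 ± 0.05, adjusted p = 2.8e-08), and Slc25a10, the dicarboxylate carrier, from 39.7 and 42.8 CPM to 31.8 and 31.0 CPM (-0.38 ± 0.07, adjusted p = 4.3e-05). Of Slc25a11's exonic bases, 8.9% are shared with Rnf167 on the other strand, which read up to 37.4 CPM. Slc25a20, which passes acylcarnitines to fatty acid oxidation, had a log2 fold change of 0.14 ± 0.10 (adjusted p = 0.20) and overlapping groups. It passed without control 2 (0.26, adjusted p = 0.046, range 0.046 to 0.90 over 12 alternatives). Slc25a21 was listed at 0 in every library.

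Among the carriers that resemble uncoupling proteins, Slc25a30 rose and was the carrier above 50 CPM in both groups with the largest change. It read 57.9 and 56.9 CPM in control 1 and 2, against 103 and 107 CPM in Mtss1 1 and 2. Its mean rose 1.83-fold, from 57.4 ± 0.685 to 105 ± 2.32 CPM (SD, n = 2), with a log2 fold change of 0.86 ± 0.05 (adjusted p = 5.5e-13). Slc25a27 fell from 11.4 ± 1.51 to 8.62 ± 0.739 CPM (-0.37 ± 0.12, adjusted p = 0.013), but not without control 1 (adjusted p = 0.19) or Mtss1 2 (0.092) or with no filter (0.091), in a range of 0.0037 to 0.19. Slc25a14 read 7.48 ± 0.162 CPM in control and 5.89 ± 0.672 CPM with Mtss1 (-0.30 ± 0.14, adjusted p = 0.055) and passed in 4 of 12 alternatives. These were without Mtss1 1 (-0.40, adjusted p = 0.036), a pseudocount of 5 (0.040), a filter of 1 CPM in all libraries (0.049) and the replicate block (0.049), in a range of 0.036 to 0.28.

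The largest falls were in 2 low carriers without a firmly assigned substrate. Slc25a45 read 6.12 and 7.09 CPM in control (125 and 154 reads) and 2.08 and 2.08 CPM with Mtss1 (33 and 35 reads), a log2 fold change of -1.30 ± 0.16 (adjusted p = 1.6e-07) and of -0.71 at a pseudocount of 5. Slc25a47, known mainly from liver, read 3.14 and 3.04 CPM in control (64 and 66 reads) and 1.07 and 0.952 CPM with Mtss1 (17 and 16 reads), a log2 fold change of -1.02 ± 0.18 (adjusted p = 2.7e-05), of -0.43 at a pseudocount of 5 and of -1.58 in limma-voom. In ratios of mean CPM the Mtss1 group stood at 0.315 and 0.328 of the control. Neither pair of groups overlapped.

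Of the other carriers in this class, Slc25a46, the outer membrane member, read 75.5 ± 0.567 CPM in control and 68.6 ± 0.776 CPM with Mtss1 (SD, n = 2; log2 fold change -0.14 ± 0.05, adjusted p = 0.019). It did not pass without control 1 (adjusted p = 0.060), control 2 (0.094) or Mtss1 2 (0.071), or with library-size scaling (0.079), in a range of 0.018 to 0.094. Slc25a35 (0.43 ± 0.19, adjusted p = 0.049; 1.11 CPM in control, 1.83 CPM with Mtss1) did not pass with any 1 of the 4 libraries left out (adjusted p 0.096 to 0.25), and missed the threshold in 8 of 11 alternatives in all (0.039 to 0.25). Of its exonic bases, 31.3% are shared with Rangrf on the other strand, which read up to 2.91 CPM. Slc25a53 read 1.96 and 2.30 CPM in control, against 1.76 and 2.44 CPM with Mtss1 (-0.02 ± 0.18, adjusted p = 0.93). Slc25a48, known to carry choline, lay under the filter with 0 and 1 reads in control and 12 and 16 reads with Mtss1, and Slc25a43 with 0 and 0 against 2 and 5 reads. Slc25a34 had at most 7 reads in a library and Slc25a54 at most 1.

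**Figure D3:**
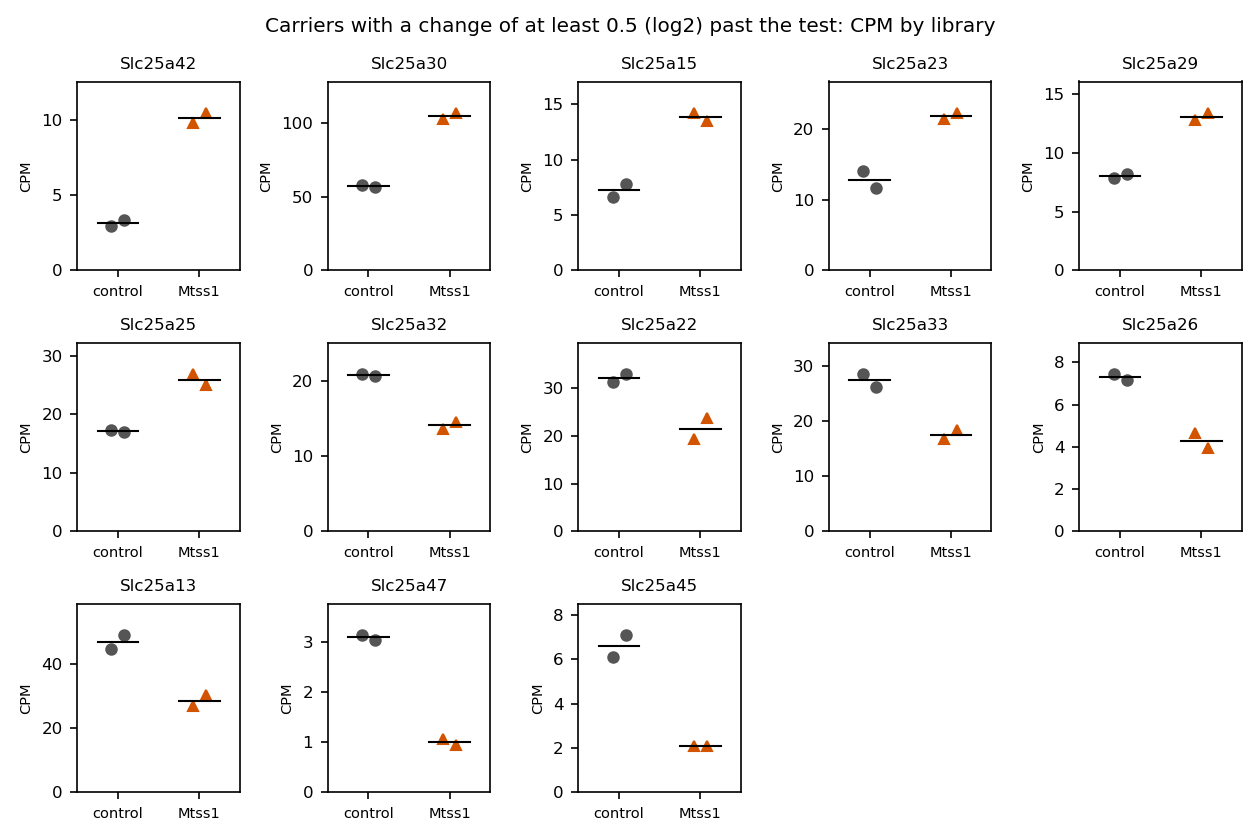
CPM by library (y axis from 0) for the 13 carriers with a log2 fold change of at least 0.5 in either direction past the test; circles are the 2 control libraries, triangles the 2 Mtss1 libraries, lines the group means. In every panel the groups are apart, as for Slc25a42 at 2.99 and 3.36 CPM against 9.83 and 10.5 CPM.

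Related carriers were set against each other within each library, since a ratio of 2 genes in 1 library does not depend on how libraries were scaled. Of 10 pairs fixed by known relatedness, 8 had both members tested. Of all single genes tested, 81.6% did not overlap between the groups, and the share among ratios of other gene pairs was not computed. The log2 ratio did not overlap between the groups for 7 of the 8 pairs. Its difference between groups was 1.19 for Slc25a23 over Slc25a24, 0.77 for Slc25a12 over Slc25a13, 0.52 for Slc25a28 over Slc25a37 and 0.41 for Slc25a39 over Slc25a40, and -1.01 for Slc25a24 over Slc25a25 and -0.60 for Slc25a33 over Slc25a36. Smaller values were found for Slc25a4 over Slc25a5 (0.05, overlapping) and Slc25a10 over Slc25a11 (0.05). With 2 libraries a group a 2-sided exact permutation test cannot go below p = 0.333, which 7 pairs reached (0.381 after adjustment over the 8 pairs), so no pair could pass.

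**Figure D4:**
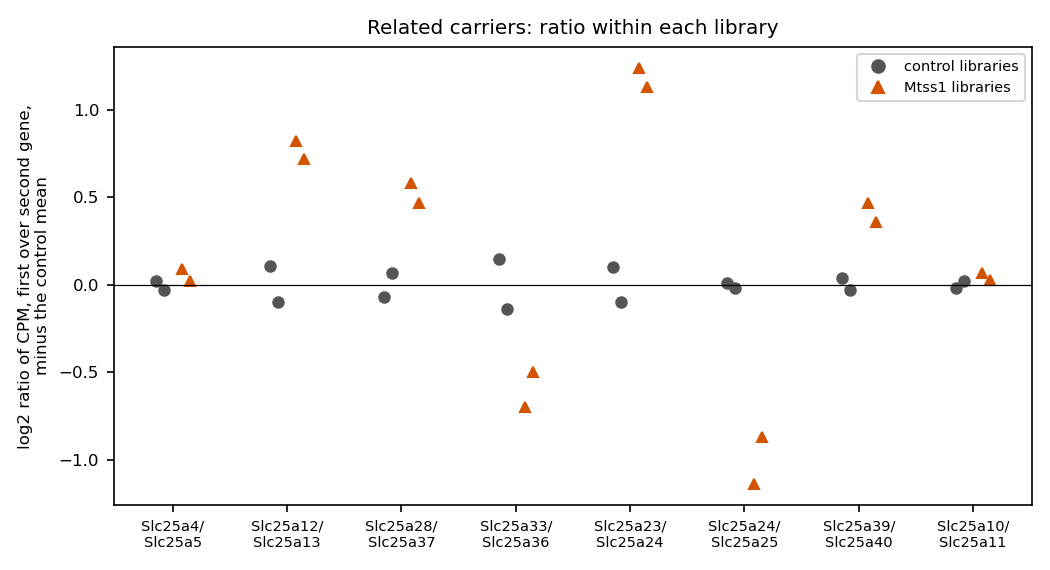
Log2 ratio of CPM of 2 related carriers in each library, minus the mean of the control libraries (y axis); circles are control, triangles Mtss1. Slc25a23 over Slc25a24 moved most (difference 1.19), while Slc25a4 over Slc25a5 and Slc25a10 over Slc25a11 each moved by 0.05.

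The members lie on 19 chromosomes, and 4 pairs of them are separated by less than 20 kilobases. Slc25a29, which rose, and Slc25a47, which fell, lie head to head on chromosome 12 with 162 bases between their annotated ends (108825873 to 108835883 on the minus strand and 108836046 to 108856815 on the plus strand, mm10). Those 162 bases are shown because the genes on their 2 sides moved in opposite directions; RefSeq places the start of Slc25a47 further downstream, after 108851128.
Slc25a29 chr12:108835884-108836045 (- strand): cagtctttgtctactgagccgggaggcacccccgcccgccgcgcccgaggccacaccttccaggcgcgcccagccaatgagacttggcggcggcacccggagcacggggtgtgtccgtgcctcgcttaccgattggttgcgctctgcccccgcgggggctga

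The other neighbours paired a tested carrier with one under the filter. Slc25a41 lies 2056 bases from Slc25a23 on chromosome 17, Slc25a54 lies 6461 bases from Slc25a24 on chromosome 3, and Slc25a43 lies 18448 bases from Slc25a5 on chromosome X. Exons of 14 members share bases with another gene. Copies at least 90% identical to at least 300 coding bases were found among annotated transcripts for 4 members. Slc25a5 had 7 of them, which summed to at most 1.07 CPM; adding them left the log2 fold change of Slc25a5 at 0.02.

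RefSeq promoter windows, from 250 bases before to 50 after a start, matched 36 of the 47 members. They were searched on both strands for the letters GCGCATGCG (bound by NRF1), CCGGAAG (ETS factors such as GABPA), TCAAGGTCA (ERR alpha), CACGTG (E-box, bound by MYC and USF factors) and TGATGCAA (ATF4 with C/EBP), none of which contains another. The E-box was in 7 of the 36 members (19.4%), beside 8.09% of 27025 genes with a window, and CCGGAAG also in 7 (19.4%), beside 9.93%. Those 27025 genes were not limited to protein-coding or expressed genes and were not matched to the members in base composition. The shares are therefore given as description only. The exact letters of the other motifs were in none of the member windows, and in 1.95%, 0.466% and 1.03% of all genes. Sites that differ from the listed letters were not searched. Members with an E-box included Slc25a1 and Slc25a15, which rose, Slc25a13 and Slc25a33, which fell, Slc25a14 and Slc25a36, which did not pass, and Slc25a31, which was not tested. Members with CCGGAAG were Slc25a25, which rose, Slc25a3 and Slc25a17, which fell, Slc25a4, Slc25a20 and Slc25a38, which did not pass, and Slc25a54, which was not tested. The upstream sequences of Slc25a1, which rose, and Slc25a13, which fell, are shown with the E-box in capitals, since both hold it.
Slc25a1 chr16:17928220-17928469 (- strand): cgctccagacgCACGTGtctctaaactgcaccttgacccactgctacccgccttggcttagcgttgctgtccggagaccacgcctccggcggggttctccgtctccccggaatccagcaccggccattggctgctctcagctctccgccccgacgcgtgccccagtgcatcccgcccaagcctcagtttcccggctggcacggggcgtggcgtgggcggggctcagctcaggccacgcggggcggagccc
Slc25a13 chr6:6217174-6217423 (- strand): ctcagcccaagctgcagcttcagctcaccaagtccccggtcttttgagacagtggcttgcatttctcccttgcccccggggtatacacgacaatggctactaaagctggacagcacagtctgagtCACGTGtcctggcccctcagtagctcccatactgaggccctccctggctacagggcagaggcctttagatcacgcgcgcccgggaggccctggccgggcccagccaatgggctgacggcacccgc

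Genes that work with the carriers were described from lists, whose counts are read beside the 31.9% higher, 34.2% lower and 66.1% called among all genes tested. Of 10 genes for the import of carriers into the inner membrane, 6 fell, 1 rose and 3 did not pass, with a median log2 fold change of -0.24. Tomm40, the channel of the outer membrane translocase, fell from 84.4 ± 1.98 to 52.2 ± 0.478 CPM (SD, n = 2; log2 fold change -0.68 ± 0.05), and Agk, a subunit of the TIM22 carrier translocase, from 27.8 to 20.9 CPM (-0.39 ± 0.08), while Timm29, another subunit, rose from 32.7 to 45.4 CPM (0.47 ± 0.08). Of carrier relatives with other symbols, Mtch1 fell (-0.20 ± 0.04) and Mtch2 rose (0.10 ± 0.04, adjusted p = 0.045). Ucp1 and Ucp3, uncoupling proteins, were listed at 0 in every library, and Ucp2 lay under the filter at 0.294 and 0.138 CPM in control and 0.567 and 1.25 CPM with Mtss1.

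Of 18 other mitochondrial channels and transporters, 10 fell, 4 rose and 4 did not pass (median -0.20), beside 34.2% lower and 31.9% higher among all genes. The sideroflexin genes Sfxn4 (7.42 to 2.05 CPM, log2 fold change -1.47 ± 0.15), Sfxn2 (17.7 to 8.08 CPM, -1.04 ± 0.11) and Sfxn5 (21.7 to 14.0 CPM, -0.60 ± 0.10) fell most. Of 12 tested enzymes that use the substrates of the aspartate, malate and citrate carriers, 6 rose, 1 fell and 5 did not pass (median 0.06), beside the same 31.9% higher and 34.2% lower among all genes. Got1, the cytosolic aspartate aminotransferase, fell from 186 to 133 CPM (-0.49 ± 0.04), while citrate synthase (Cs, 338 to 436 CPM, 0.37 ± 0.03) and the malic enzyme Me1 (71.2 to 97.4 CPM, 0.45 ± 0.05) rose.

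In the carnitine shuttle, 3 of 5 genes rose and 2 did not pass, a call share near the 66.1% of all genes. Cpt1a, which forms acylcarnitines at the outer membrane, rose from 42.8 ± 0.313 to 69.2 ± 1.00 CPM (SD, n = 2; log2 fold change 0.68 ± 0.06), and Slc22a5, a plasma membrane carnitine transporter, from 9.93 to 13.6 CPM (0.42 ± 0.11). Cpt1c, counted among the 3 that rose, went from 0.196 and 0.138 CPM in control, close to the value of 3 reads, to 2.84 and 2.50 CPM with Mtss1 (1.65 ± 0.19). It reached 1 CPM only in the Mtss1 libraries, so its entry into the test depended on the group where it was high. Of 12 iron and haem genes, 4 rose, 3 fell and 5 did not pass (median -0.01), again near the 66.1% called among all genes. The falls were in Tfrc, the transferrin receptor (146 ± 7.57 to 72.6 ± 1.82 CPM, log2 fold change -1.0 ± 0.05), and the haem synthesis genes Uros (9.72 to 5.82 CPM, -0.67 ± 0.14) and Cpox (104 to 77.1 CPM, -0.43 ± 0.05). The limma adjusted p of the genes named from these lists was 0.0022 or lower, other than for Mtch2.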

How the data were processed

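The authors deposited 1 table of CPM (reads per 1000000) for 4 libraries; the unit was read from the values, whose columns sum to 982877 to 1016225. The tools STAR, RSEM and FastQC 0.11.2 and the build mm10 are named per the submitters' processing notes; annotation, strandedness and scaling are not given in the sources used here. Values are multiples of the CPM of 1 read, whole within 0.005 read for 79.6% to 80.5% of nonzero values, so reads are rounded expected counts and 3 reads equal 0.138 to 0.189 CPM.

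Limma 3.58.1 in R 4.3.3 (lmFit, eBayes with trend) was run on log2(CPM + 1) for the 12510 genes that reached 1 CPM in 2 or more libraries, with Benjamini-Hochberg adjustment over all of them and a threshold of 0.05. Residual degrees of freedom were 2 and the prior added 20.0. The fit was tested on simulated data. Coordinates and exon lengths are from GENCODE M21 (mm10), which matched 50376 of 50600 identifiers. Copies were sought with blastn 2.17.0.

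The members, classes and lists were chosen with earlier results of these data known. Every tested carrier is named except 1 that is counted but not reported here, with values by library for those past the threshold with a change of at least 0.5 and for fixed pairs of relatives. From each list up to 3 genes with the largest changes past the threshold are named; other genes named outside that rule are list members under the filter and Zeb1, named after its values were seen. Alternatives were limma-voom on recovered expected counts, 2 other scalings, 2 other filters, pseudocounts of 0.1 and 5, a replicate block, a threshold of 0.01, and each library left out in turn.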

Additional observations from a re-analysis of the deposited data

How the results depend on the processing

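Counts of carriers called stayed within 1.5 times the reported 10 higher and 18 lower in every alternative run, at 8 to 12 higher and 14 to 19 lower. Leaving out 1 library at a time gave 8 to 10 higher and 14 to 17 lower. The median log2 fold change of -0.06 moved by more than the spread between replicates (SD 0.025) to -0.02 with library-size scaling, to -0.03 with no filter, where 46 carriers entered, and to -0.09 without Mtss1 2, with -0.09 to -0.05 over the 4 libraries left out. Beside these, the median over all genes tested was -0.012 in the main fit and 0.023 with library-size scaling. It was -0.012 with no filter and -0.029 without Mtss1 2. The cause of the carriers' moves was not tested. With the replicate number as a block, 10 carriers were higher and 19 lower, with Slc25a14 added (adjusted p = 0.049). Same-numbered libraries did not deviate together (correlation -0.024 across 12510 genes). With 2 libraries a group, this correlation cannot tell whether same-numbered libraries were prepared together. Of 28 called carriers, 21 kept their call and direction in every alternative in which they were tested, and 0 of the 28 changed direction. The other 7 were Slc25a17, Slc25a27, Slc25a35, Slc25a37, Slc25a39, Slc25a46 and Slc25a51. Signs turned for 3 carriers that did not pass. With library-size scaling Slc25a36 stood at 0.00017 and Slc25a53 at 0.01. With 1 library left out at a time, Slc25a5 ran from -0.03 (without control 1) to 0.07, Slc25a36 from -0.12 to 0.04 (without control 2), and Slc25a53 from -0.18 to 0.14 (above 0 without control 2 and without Mtss1 1). Mtss1 ran from 1.11 to 1.22. Tested carriers held 16 to 17185 reads in a library, which limits the precision at the low end.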
